A study of Schizosaccharomyces pombe with 2 samples.

Results

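Introns that were already poorly spliced at 25 °C were taken from a fission yeast (Schizosaccharomyces pombe) table of spliced and unspliced reads per intron. An intron was included when it had at least 20 reads in each library and at least 15% of its reads at 25 °C were unspliced. This gave 406 introns of 355 genes, out of 2508 introns of 1441 genes with enough reads and 5374 introns in all. The unspliced share is the number of unspliced reads as a percentage of spliced and unspliced reads of an intron. The share at 25 °C chose the introns, so their values at 25 °C are given as a description and carry no test.

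The libraries came from a pat1_as2 prp2-1 strain that was starved of nitrogen in minimal medium, stopped in G1 and induced chemically into synchronous meiosis. The culture was divided as meiosis I began. The first part was moved to 34 °C, the restrictive temperature of prp2-1, and the second part stayed at 25 °C, the permissive temperature, and polyA RNA was taken from both after 1 h. Both libraries carry the prp2-1 allele and the pat1 allele, and no prp2+ strain is among them, so a share at 25 °C is that of a mutant strain at its permissive temperature. The 34 °C library held 493659 intron reads and the 25 °C library 636989. There is 1 library at each temperature, so nothing here was checked against a replicate, and each test speaks of these libraries only. Intervals cover counting error only, and PCR copies of a molecule are not independent reads.

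A nuclear intron is recognised by pairing of the U1 particle with the 5' splice site and by binding of proteins to the branch point and to the pyrimidine-rich stretch and AG that end the intron. Prp2 is the large subunit of U2AF, which binds the pyrimidine tract. In fission yeast the introns of some meiotic genes are known to stay unspliced in vegetative cells and to be spliced in meiosis. Retention of an intron in a coding region usually brings a stop codon or a shifted reading frame into the mRNA.

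The introns that carry the results differ in their splice sites, and some of them are given here from RefSeq's ASM294v3 assembly, 5' to 3', with the first 6 bases and the last 3 bases of the intron in capitals. Those of wtf23 and wtf19, genes of the wtf family of meiotic drivers, are nearly the same sequence and were among the 3 poorly spliced introns with the most reads. They lie on the plus strand of chromosome III at 2146443 to 2146491 and at 2018398 to 2018446, and both are in coding sequence.
wtf23 intron 2: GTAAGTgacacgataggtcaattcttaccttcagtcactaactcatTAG
wtf19 intron 2: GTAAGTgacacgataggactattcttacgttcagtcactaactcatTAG
Those of sws2 (chromosome III, minus strand, 984641 to 984710) and meu1 (chromosome I, plus strand, 3804588 to 3804660) were among the highest at 25 °C of introns with at least 100 reads in each library. They begin with different hexamers, and each is the only intron of its gene.
sws2 intron 1: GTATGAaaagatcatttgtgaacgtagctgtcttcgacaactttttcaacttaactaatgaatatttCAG
meu1 intron 1: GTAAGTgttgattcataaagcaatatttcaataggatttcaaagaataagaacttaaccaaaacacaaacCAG
Intron 1 of got1 (chromosome III, plus strand, 1176781 to 1176825) and intron 2 of lam1 (chromosome II, plus strand, 2573946 to 2573997) lack the G at the fifth base that most fission yeast introns carry. Intron 2 of vma11 (chromosome I, plus strand, 2057696 to 2057727) has that G and is only 32 nt long.
got1 intron 1: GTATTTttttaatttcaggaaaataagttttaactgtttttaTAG
lam1 intron 2: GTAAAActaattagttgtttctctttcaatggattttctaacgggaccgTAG
vma11 intron 2: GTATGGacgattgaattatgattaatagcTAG

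Across the 406 introns the unspliced share at 34 °C had a median of 73.3% (95% interval from order statistics 69.0 to 76.2) and quartiles of 56.8% and 85.9%. The other 2102 introns with enough reads had a median of 35.3% (33.3 to 37.0) and quartiles of 18.1% and 56.0%. At 25 °C the medians were 22.9% for the poorly spliced introns and 4.55% for the others. More than 50% of reads were unspliced at 34 °C in 330 of the 406 (81.3%) and in 660 of the others (31.4%). A share above 90% at 34 °C was found in 61 of the poorly spliced introns and in 19 of the others. Conversely, the share at 34 °C was under 25% in 8 of the 406 and in 730 of the others. Most introns that were poorly spliced at the permissive temperature were thus unspliced in the larger part of their reads at the restrictive temperature.

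**Figure D1:**
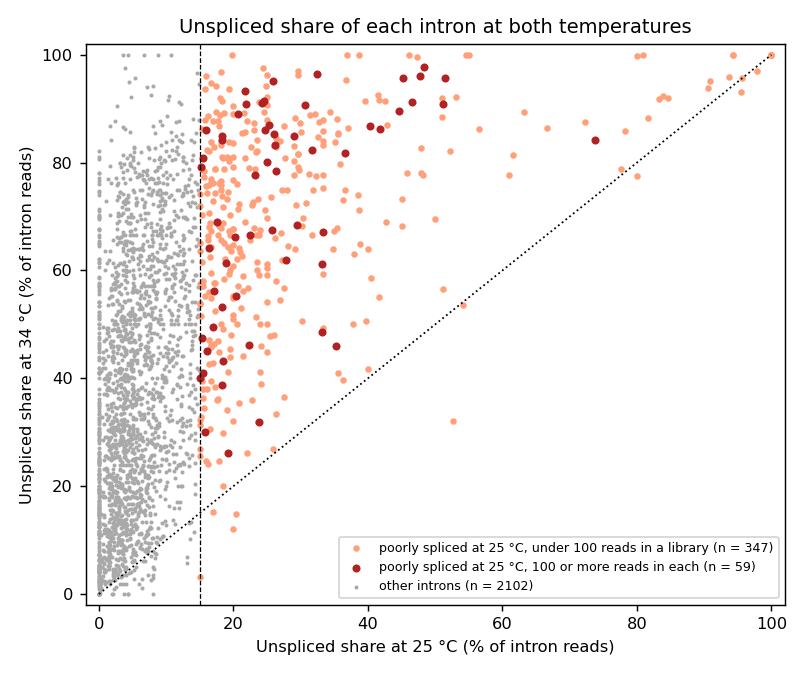
Unspliced share of each intron with at least 20 reads in each library, at 25 °C on the x axis and 34 °C on the y axis, in percent of its intron reads. The dashed line marks the limit of 15%, the dotted line marks equal shares, and nearly all of the 406 introns to the right of the dashed line lie above the dotted line.

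Introns with few reads were more often past the limit. Of 1146 introns with under 50 reads in a library, 21.5% were at 15% or more, against 8.18% of the 721 introns with at least 100 reads in each library. In 161 of the 406 the lower limit of the exact 95% binomial interval of the share at 25 °C was itself at 15% or more. The 59 poorly spliced introns with at least 100 reads in each library carry the description of single introns below. Their median share was 80.1% at 34 °C (66.7 to 85.0), against 24.6% at 25 °C, and that of the other introns of this depth was 29.3% at 34 °C (26.3 to 31.3), against 4.04% at 25 °C.

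The share at 34 °C followed the share at 25 °C within the poorly spliced introns as well. The 152 introns at 15 to 20% at 25 °C had a median of 65.4% at 34 °C. The 137 introns at 20 to 30% had 71.1%, the 77 at 30 to 50% had 78.1%, and the 40 at 50% or more had 92.0%. The median change of these 40 was only 8.06 points, against 47.9, 47.4 and 44.0 points in the groups below, from lowest to highest. Of the 40, 3 had at least 100 reads in each library, and 4 had no spliced read in either library. Spearman's rho across introns was 0.43 over the 406 and 0.56 over the 59 with at least 100 reads. It was also 0.56 over all 721 introns of that depth. The points share their 2 libraries, and introns of 1 gene share their transcript.

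Set as a difference in percentage points, the poorly spliced introns changed more, with a median of 43.9 points (quartiles 26.3 and 56.9) against 29.9 points (13.9 and 49.3) for the others. On the scale of the odds of unspliced to spliced reads the order turned. The median log2 odds ratio, 34 over 25 °C, with 0.5 added to each count, was 2.84 for the poorly spliced introns and 3.46 for the others. Among introns with at least 100 reads in each library it was 3.26 and 3.36. The 25 °C library enters both the choice of introns and this ratio. Over all introns the median ratio was 4.24 at a share of 0 to 2% at 25 °C and 1.18 at 50% or more.

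**Figure D2:**
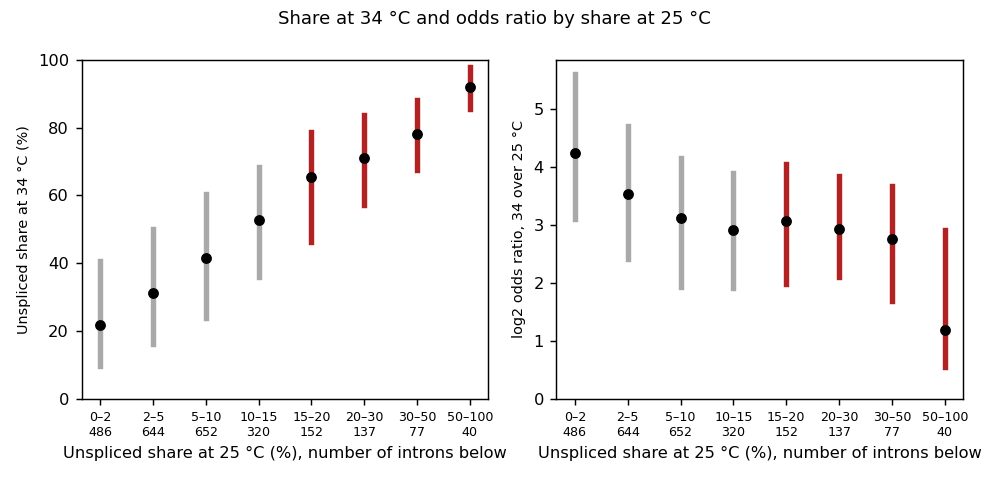
Unspliced share at 34 °C in percent (left) and log2 odds ratio of unspliced to spliced reads, 34 over 25 °C (right), for introns grouped by their share at 25 °C, with the number of introns under each group. Points are medians and bars run from the lower to the upper quartile, with the poorly spliced introns in red. The median share at 34 °C rises from group to group up to 92.0%, and the odds ratio does not.

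For each intron the reads at 34 °C were set against those at 25 °C by Fisher's exact test (two-sided, p adjusted by Benjamini-Hochberg over all 2508 introns, called under 0.05). The share was higher at 34 °C in 332 of the 406 (81.8%), against 82.6% of all introns tested. It was called lower in 0 of the 406 and in 0 of all 2508. A lower share with an unadjusted p under 0.05 by the same exact test was found in 0 of the 406 and in 0 of all 2508. By a chi-square test 0 of the 406 were called lower. The rule used the 25 °C library of this comparison, so nothing is read from these counts. Among the introns with at least 100 reads 58 of 59 were called higher, against 91.3% of all introns of that depth. The median number of reads, both libraries summed, was 91 for the 74 uncalled introns and 132 for the called ones. A lower share at 34 °C was found in 9 of the 406, against 52 of all 2508. Of the 9, intron 3 of pdc2 had the most negative difference. Its share was 32.1% of 56 reads at 34 °C, against 52.6% of 38 reads at 25 °C (interval -38.8 to -0.334 points, adjusted p = 0.0669, Fisher's exact test). This intron was singled out after its value was seen and was not called.

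Among introns with at least 100 reads in each library the highest share at 25 °C was that of intron 3 of vma9, for subunit e of the membrane part of the vacuolar ATPase. Its unspliced share was 84.2% of 392 reads at 34 °C (exact 95% interval 80.2 to 87.7), against 73.7% of 647 reads at 25 °C (70.2 to 77.1). The difference was 10.5 points (Newcombe 95% interval 5.35 to 15.3, Fisher's exact test, adjusted p = 1.43e-04). The intron spans 501895 to 501934 on the plus strand of chromosome II and lies in the 3' UTR of the annotated transcript, outside the coding sequence. Introns 1 and 2 of the same gene had 30.6% and 23.2% unspliced at 34 °C, and 5.12% and 6.22% at 25 °C.

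With still more reads at 25 °C, the only intron of rit1, a gene for an enzyme that modifies the initiator tRNA, had 77.8% of 90 reads unspliced at 34 °C, against 61.0% of 1851 reads at 25 °C. Its difference of 16.7 points had an interval of 6.86 to 24.4.

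Another subunit gene of that part of the vacuolar ATPase, vma11, held 4 poorly spliced introns among its 5. Intron 2 had 31.8% of 245 reads unspliced at 34 °C, against 23.8% of 130 reads at 25 °C, and its difference of 7.99 points had an interval of -1.73 to 16.9 (adjusted p = 0.138, Fisher's exact test). It was the single one of the 59 introns with at least 100 reads in each library that was not called. Intron 3 rose to 38.8% at 34 °C, against 18.2% at 25 °C. Introns 4 and 5, with 48.1% and 26.1% at 34 °C, against 26.1% and 22.0% at 25 °C, were shallower and not called. Intron 1, below the limit, had 25.8% at 34 °C, against 13.8% at 25 °C. The 5 introns of vma11 ran from 25.8% to 48.1% at 34 °C, all under the median of the poorly spliced introns, and from 13.8% to 26.1% at 25 °C.

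Small differences between the temperatures were also found elsewhere. Intron 1 of ubc6, for a ubiquitin-conjugating enzyme, had 26.2% of 497 reads unspliced at 34 °C, against 19.2% of 318 reads at 25 °C (difference 6.97 points, 1.02 to 12.6). The intron of glo2, a gene for a hydroxyacylglutathione hydrolase, had 46.1% of 421 reads at 34 °C, against 35.2% of 321 reads at 25 °C (10.9 points, 3.74 to 17.8). In spp41, for a transcriptional regulator, intron 2 rose to 48.6% at 34 °C, against 33.1% at 25 °C. Its intron 1 was almost wholly unspliced at both temperatures, with 77 of 81 reads at 34 °C, against 99 of 109 at 25 °C, and was not called (4.24 points, -3.95 to 11.8).

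At the other end stood introns that were spliced in most transcripts at 25 °C and in few at 34 °C. Among the 59 introns with at least 100 reads in each library the largest rise was in intron 3 of atg5, an autophagy gene, with 93.2% of 103 reads unspliced at 34 °C, against 21.8% of 239 reads at 25 °C, a difference of 71.4 points (62.8 to 77.3). Intron 2 of pof2, for an F-box protein, rose to 86.1% at 34 °C, against 15.9% at 25 °C. The next rises among the 59 were those of intron 4 of tsn1, for translin, at 95.2% at 34 °C, against 25.9% at 25 °C, and of intron 2 of wtf19. Intron 2 of lam1, for a subunit of the Ragulator complex, rose to 89.1% at 34 °C, against 20.7% at 25 °C. The intron of SPAC16E8.05c had 91.5% at 34 °C, against 24.6% at 25 °C. At 34 °C the 59 introns ranged from 26.2% to 97.7%, with quartiles of 55.7% and 88.0%.

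**Figure D3:**
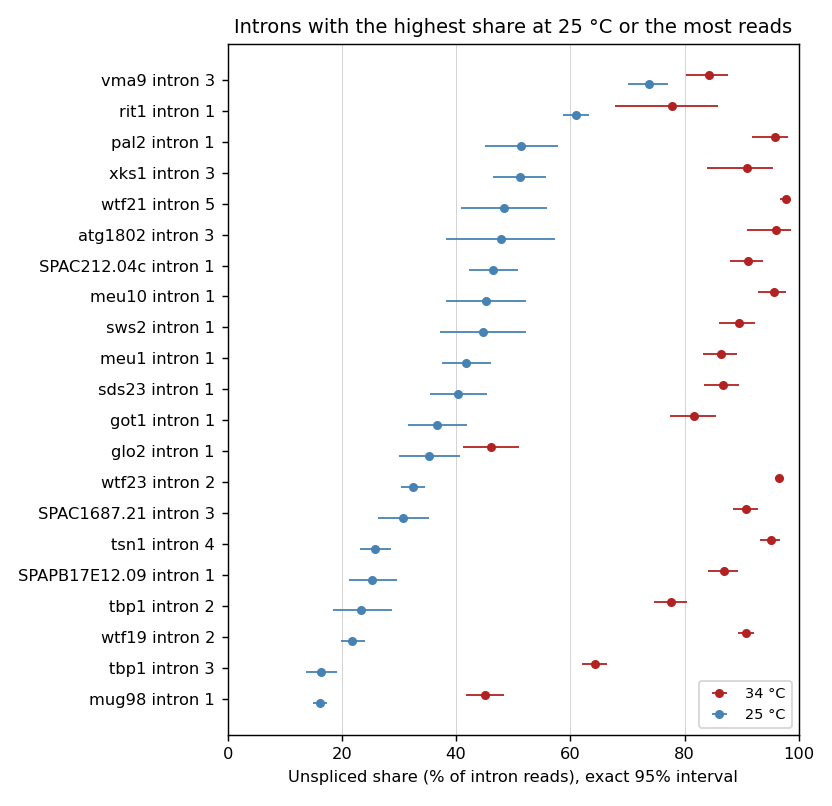
Unspliced share at 34 °C (red) and 25 °C (blue), in percent of intron reads with exact 95% binomial intervals, of the introns with the highest share at 25 °C among those with at least 100 reads in each library, and of the 10 poorly spliced introns with the most reads. The intervals at 34 °C and 25 °C do not overlap in any intron shown, and the share at 34 °C is above 75% in all but glo2, tbp1 intron 3 and mug98.

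The introns of this depth that were at 40 to 60% unspliced at 25 °C were all above 80% at 34 °C. Intron 1 of pal2, for a meiosis-specific endocytosis factor, had 95.8% of 189 reads unspliced at 34 °C, against 51.4% of 245 reads at 25 °C. Intron 3 of xks1, for xylulose kinase, had 90.9% of 110 reads at 34 °C, against 51.1% of 456 reads at 25 °C. For intron 3 of atg1802, which encodes a phosphoinositide-binding protein of the autophagy family, the shares were 96.0% of 126 at 34 °C, against 47.8% of 113 at 25 °C. Both were thus nearly unspliced at 34 °C. SPAC212.04c, a gene of unknown function, had 91.2% of 407 reads at 34 °C, against 46.5% of 561 at 25 °C. In the intron of sws2, for a mitochondrial ribosomal protein, 89.5% of 409 reads were unspliced at 34 °C, against 44.6% of 177 at 25 °C. The intron of sds23 lies in the 5' UTR and had 86.7% of 519 reads at 34 °C, against 40.4% of 389 at 25 °C. Among the introns with the most reads, intron 3 of SPAC1687.21, annotated as a fructose-2,6-bisphosphatase gene, had 90.8% of 714 reads unspliced at 34 °C, against 30.6% of 431 at 25 °C. The intron of SPAPB17E12.09, of unknown function, had 86.9% of 650 at 34 °C, against 25.3% of 447 at 25 °C.

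Among genes taken as meiotic by the prefix of their symbol, 15 of 99 measured introns (15.2%) were poorly spliced, against 16.2% of all measured introns. Their shares ran from 45.1% to 100% at 34 °C and from 15% to 94.3% at 25 °C, and 14 of the 15 were called higher at 34 °C, where 82.6% of all introns tested were. Within this list meu10, whose product is a GPI-anchored protein, had 95.7% of 303 reads unspliced at 34 °C, against 45.2% of 208 at 25 °C in a 3' UTR intron. The intron of meu1 had 86.3% of 541 reads at 34 °C, against 41.7% of 527 at 25 °C. The deepest poorly spliced intron at 25 °C was that of mug98, 38 nt long, with 45.1% of 883 reads unspliced at 34 °C, against 16.1% of 3328 reads at 25 °C. Intron 3 of meu15 had 68.9% of 283 reads at 34 °C, against 17.5% of 543 at 25 °C, and intron 4 of mug126 had 49.6% of 686 at 34 °C, against 17% of 200 at 25 °C. In mug161, for a splicing factor of the CwfJ family, intron 3 had 72 of 72 reads unspliced at 34 °C. At 25 °C it had 133 of 141, and it was not called. Introns 2 and 4 on either side had 87.9% and 85.7% at 34 °C, against 15.8% and 21.7% at 25 °C. Introns 2, 3 and 4 are each overlapped by an annotated exon of oct1 on the opposite strand. Whether reads of oct1 enter their unspliced counts was not tested.

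Of the genes best known for splicing in meiosis only, crs1, rem1 and mes1, the table gave enough reads for 2 introns. The single intron of rem1, which encodes a meiotic cyclin, was poorly spliced, with 57.7% of 71 reads unspliced at 34 °C, against 17.1% of 35 reads at 25 °C (exact 95% interval at 25 °C 6.56 to 33.6). The other measured intron, in another gene of these, was under the limit at 25 °C. The median over the 2 introns was 42.9% at 34 °C, against 9.27% at 25 °C.

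In the wtf family 8 of 51 measured introns (15.7%) were poorly spliced. Intron 2 of wtf23 had 96.5% of 2830 reads unspliced at 34 °C, against 32.4% of 1907 at 25 °C, and intron 2 of wtf19 had 90.8% of 1885 at 34 °C, against 21.9% of 1519 at 25 °C. The sequences of this pair, printed above, have the same 49 bases but for A18T, T20A and G29C, written as the wtf19 base, the position and the wtf23 base, with positions counted from 1 at the first intron base. Besides those of wtf21, the other poorly spliced introns of the family were intron 1 of wtf3, intron 2 of wtf12, intron 1 of wtf14 and intron 1 of wtf24, with 91.7%, 62.7%, 83.6% and 50.6% unspliced at 34 °C, against 83.3%, 21.2%, 20% and 30.2% at 25 °C. The intron of wtf3 was not called. In wtf21, introns 4 and 5 had 99.8% and 97.7% unspliced at 34 °C, against 80% and 48.3% at 25 °C, whereas introns 1 and 2 had 0 unspliced reads of 36 and 79 at 34 °C, against 0 of 145 and 439 at 25 °C. In wtf19, intron 5 had 0 of 155 reads unspliced at 34 °C, against 0 of 370 at 25 °C. The wtf genes share long stretches of sequence, and 18 wtf introns in the table had 0 reads in both libraries. The assignment of their reads is uncertain, and the part of this in the contrast between introns of 1 wtf gene was not tested.

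Genes with the symbol prefixes of ribosomal proteins held 7 poorly spliced introns among 77 (9.09%, against 16.2% of all measured introns), of which 5 were called higher at 34 °C, where 82.6% of all introns tested were. Intron 1 of rpl22 had 78.5% of 548 reads unspliced at 34 °C, against 26.3% of 418 at 25 °C. The 3' UTR intron of rpl39 had 83.3% of 245 at 34 °C, against 26.2% of 103 at 25 °C. The intron of rps2801 had 26.9% of 119 at 34 °C, against 15.1% of 53 at 25 °C, and was not called. That of rpl3601 had 55% of 40 at 34 °C, against 41.7% of 24 at 25 °C, and was not called. The 5' UTR intron of rps2202 rose to 78.8% of 33 reads at 34 °C, against 18.6% of 59 at 25 °C. Of the 7, rpp40, for an RNase P subunit and not a ribosomal protein, held 2. Splicing factor genes, by prefix, held 7 of 65 (10.8%, against the same 16.2%), of which 5 were called, beside 82.6% of all introns. Among the 7, srp21 encodes a subunit of the signal recognition particle. Intron 1 of prp10, for the U2 particle protein known as SF3B1 in humans, had 116 of 126 reads unspliced at 34 °C. At 25 °C it had 33 of 39, and it was not called. Intron 2 of the same gene had 5 of 56 at 34 °C. In lsm3, for a U6-associated protein, intron 4 rose to 51.8% at 34 °C, against 20% at 25 °C. In prp45, cwf19 and prp19, whose products belong to or act with the Prp19 complex, the share of intron 2 was 66.7%, 68.3% and 64% at 34 °C, against 23.3%, 30.2% and 29.2% at 25 °C. The intron of cwf7 had 36.6% at 34 °C, against 27.5% at 25 °C, and was not called. Of 1 measured intron of a noncoding gene, 0 were poorly spliced.

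The introns were spread over many genes, with 315 genes holding 1, 32 holding 2, 5 holding 3 and 3 holding 4. In 104 genes the poorly spliced intron was the only one in the table, and introns of single-intron genes were at 15% or more in 19.7% of 529 cases, against 15.3% of 1979 introns of genes with several. Of 190 genes with a poorly spliced intron and at least 1 other measured intron, 17 had only poorly spliced ones. In the remaining 173 genes, 205 poorly spliced introns stood beside 299 others. At 34 °C the median share was 75.8% for the poorly spliced introns of these genes and 44.1% for their neighbours under 15%. Introns of the 437 genes with several measured introns and none poorly spliced had a median of 34.3% at 34 °C. At 25 °C the medians were 5.88% for the neighbours and 4.03% for introns of genes with none. The mean share at 34 °C of the poorly spliced introns exceeded that of the other introns in 147 of the 173 genes, by a median of 25.0 points.

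Whether a poorly spliced intron also differed from the intron next to it at 34 °C was tested in the 34 °C library alone, whose shares took no part in choosing it, although the rule asked for 20 reads there. All 977 pairs of neighbouring measured introns were tested (Fisher's exact test, p adjusted by Benjamini-Hochberg over the pairs), and 54.6% of them differed. Of the 186 pairs of a poorly spliced intron and one under 15%, from 153 genes, 122 (65.6%) differed, and the poorly spliced intron had the higher share in 115 and the lower share in 7. Those 7, named after their values were seen, were in pac3, ric8, qtr1, yos9, rpc19, naa25 and got1. Pairs without a poorly spliced intron differed in 53.1% of 752. In the 39 pairs of 2 poorly spliced introns, 12 differed (30.8%). These pairs were shallower, with median reads at 34 °C of 59 and 65 for their introns. The medians were 87 and 76.5 in pairs with 1 poorly spliced intron, and 91 and 89.5 in pairs with none. Part of the lower percentage may therefore lie in depth, which was not tested.

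The widest differences at 34 °C were between a nearly unspliced intron and a mostly spliced one of the same gene. In not11, intron 1 had 89.4% of 113 reads unspliced at 34 °C and intron 2 had 1 of 25 (interval of the difference 68.3 to 90.9 points). In prp10 the introns had 92.1% and 8.93% (interval of the difference 71.2 to 89.3), and in atg1802 introns 3 and 4 had 96.0% and 14 of 108 reads (74.0 to 88.6). Intron 7 of npg1, for a GTPase regulator, had 86.3% and intron 6 had 7.39% of 582 reads (71.4 to 84.2). The others of the 8 widest were in wtf3, SPAC17C9.11c, SPBP8B7.31 and spo20. In all 8 the poorly spliced intron was the higher one.

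In some genes poorly spliced introns alternated with better spliced ones. In tsn1, shares of 86.1% and 95.2% were found at 34 °C for introns 2 and 4, and introns 1, 3 and 5 had 69.1%, 72.3% and 63.8%, and each of the 4 neighbouring pairs differed by Fisher's exact test (largest adjusted p = 5.93e-05). At 25 °C introns 2 and 4 had 24.8% and 25.9%, and the other 3 had between 3.86% and 5.67%. The same alternation held in qcr10, for a subunit of respiratory complex III, where introns 1 and 3 had 46.1% and 67.0% at 34 °C and introns 2 and 4 had 16.7% and 9.73%. At 25 °C the qcr10 values were 22.3% and 20 of 74 reads for introns 1 and 3 and 3.47% and 2.78% for introns 2 and 4. In idh2, for a subunit of isocitrate dehydrogenase, intron 3 had 67.5% of 388 reads at 34 °C, and introns 1, 2 and 4 had 26.1%, 24% and 18.0%. The pairing of intron 3 with intron 4 had an adjusted p of 1.20e-22 by Fisher's exact test. In pdk1, for a protein kinase, introns 1, 3 and 4 had 56.3%, 42.7% and 39.5% at 34 °C, with intron 2 at 24.1%.

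In tbp1, the gene of the TATA-binding protein, all 3 introns were mostly unspliced at 34 °C, and intron 2 exceeded both of its neighbours. Introns 2 and 3 had 77.6% of 872 reads and 64.2% of 1876 reads unspliced at 34 °C, and 23.3% and 16.3% at 25 °C. Intron 1, with the most reads, had 61.2% of 6542 at 34 °C, against 479 of 3991 at 25 °C. Intron 2 was higher than intron 1 at 34 °C by 16.4 points (interval 13.3 to 19.3) and higher than intron 3 by 13.4 points (9.82 to 16.8). In lam1 introns 1 and 2 had 89.3% and 89.1% at 34 °C, a difference of 0.233 points (interval -7.04 to 8.14), and 34.4% and 20.7% at 25 °C. Intron 3 of lam1, under the limit, had 52.9% of 34 reads at 34 °C, against 6.02% of 133 at 25 °C, and intron 2 was higher than it at 34 °C by 36.1 points (19.1 to 52.9). In SPBP19A11.07c introns 1, 5, 6 and 8 ran from 80.8% to 97.6% at 34 °C and from 15.5% to 53.2% at 25 °C. Its introns 2, 3 and 4, under the limit, had 52.5%, 48.3% and 92.3% at 34 °C, against 4.97%, 3.97% and 10.3% at 25 °C, and intron 1 was higher than intron 2 at 34 °C by 28.3 points (15.2 to 40.6). In pal2, intron 2 had 66.7% at 34 °C, against 22.4% at 25 °C, and intron 1 was higher than it at 34 °C by 29.1 points (21.7 to 36.3). An exception to the usual order was got1, for a Golgi transport protein, where intron 2 had 47.5% at 34 °C and its neighbour intron 3, just under the limit at 25 °C, had 76.1% (Fisher's exact test, adjusted p = 1.28e-03), while intron 1 had 81.7%.

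**Figure D4:**
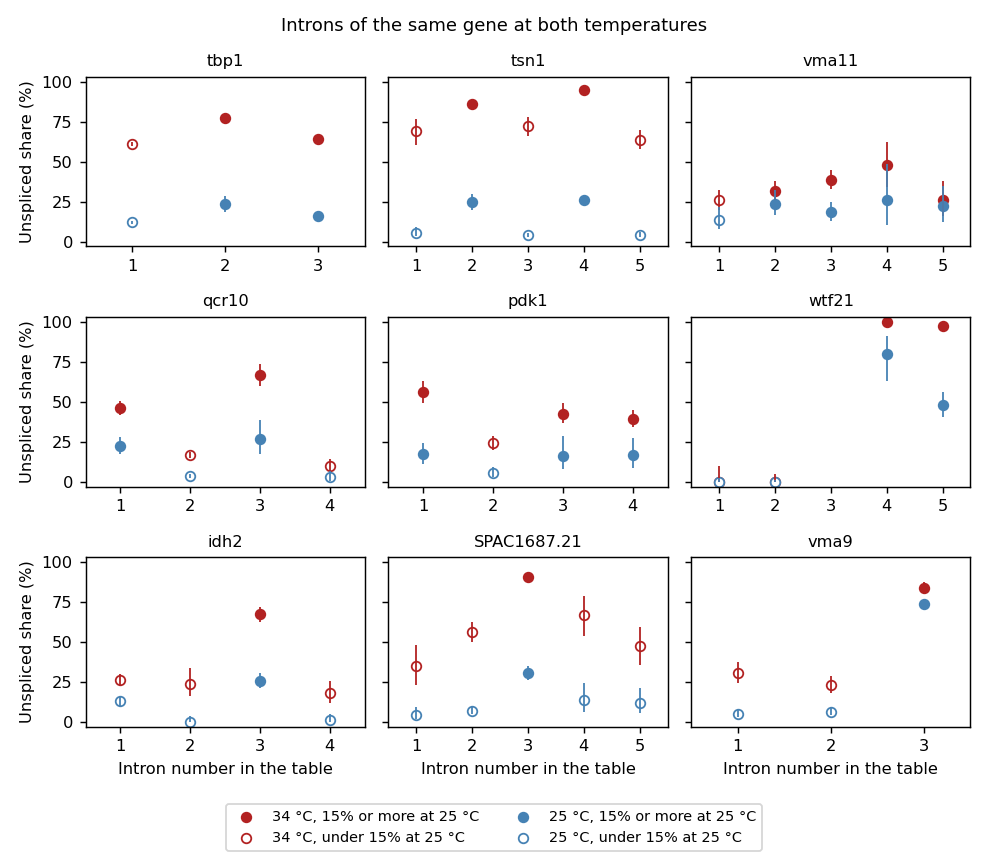
Unspliced share, in percent with exact 95% binomial intervals, of the measured introns of 9 genes at 34 °C (red) and 25 °C (blue), by intron number counted from the left end of the chromosome. Filled points are introns at 15% or more at 25 °C and open points those under 15%, and in qcr10, tsn1, idh2 and vma9 the filled points stand above their neighbours at both temperatures.

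The limit of 15% did not fall in a gap. Just inside it, among introns with at least 100 reads in each library, were intron 1 of sar1 with 40% at 34 °C, against 15% at 25 °C, intron 3 of tsp0 with 79.1% at 34 °C, against 15.2% at 25 °C, and intron 2 of got1 with 47.5% at 34 °C, against 15.3% at 25 °C. Just outside were the intron of mug74 with 87.9% at 34 °C, against 14.8% at 25 °C, and intron 1 of SPAC22A12.14c with 65.8% at 34 °C, against 14.6% at 25 °C.

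In 4 of the 406 no spliced read was counted at either temperature, namely intron 2 of SPAC29A4.02c (220 unspliced reads at 34 °C, against 46 at 25 °C), intron 1 of fta3 (150 at 34 °C, against 62 at 25 °C), the intron of new11 (21 at 34 °C, against 78 at 25 °C) and that of med11 (33 at 34 °C, against 45 at 25 °C). The rule places every such entry among the 406, so the other 2102 introns could hold none. The annotation used here gives 4 of the 406 a gap under 20 bases between exons, namely entries of new11, rrp36, pdc101 and rmr1, too short for an intron. A further 22 could not be given a position because the number of introns in the gene differs from the annotation, among them those of SPAC29A4.02c, fta3, xks1 and meu15. These entries were chosen after their values were seen. Without the entries that were never spliced or have no intron length, 399 introns remained, with a median of 73.2% at 34 °C.

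Reads of a gene that overlaps an intron may have been counted as unspliced, since the sources used here do not say how strand was treated. An annotated exon of another gene, on the opposite strand, overlapped 244 of 384 placed introns (63.5%), against 57.6% of the other 2031. The median share at 34 °C was 74.3% for the 140 poorly spliced introns free of such an exon and 72.5% for the overlapped ones, and at 25 °C it was 23.3% and 22.3%. With at least 100 reads in each library 59.6% of the poorly spliced introns and 57.0% of the others were overlapped. Among the introns named above, exons of vid21, mrm202 and php2 overlapped those of sws2 and SPAPB17E12.09 and intron 3 of tsp0. Exons of noncoding RNA genes overlapped others, such as intron 2 of wtf23. Intron 3 of vma9 and the introns of meu1 and sds23 were free of such exons. How far overlapping genes enter the share of a single intron was not tested. Of the placed poorly spliced introns 13 of 384 (3.39%) lay in a 5' UTR and 5 (1.30%) in a 3' UTR, against 1.43% and 0.0492% of the others, and 366 lay in coding sequence. In minus-strand genes with several introns, overlap and place both rest on numbering the introns from the left.

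The sequence of the introns was compared over 227 poorly spliced introns and 1211 others whose position is the same whether introns are counted from the left or along the transcript. A G at the fifth intron base, which pairs with U1, was present in 85.5% of the poorly spliced introns and 93.1% of the others. An A at the third base was present in 89.4% of the poorly spliced introns and 94.5% of the others. The hexamers GTAAGT and GTATGT, the commonest 5' splice sites, opened 41.9% of the poorly spliced introns and 54.3% of the others. In all 3 comparisons the commonest letters were less frequent in the poorly spliced introns. Among introns with at least 100 reads in each library (41 poorly spliced and 404 others) the figures were 87.8% and 93.1% for the fifth base and 87.8% and 94.1% for the third. Each 87.8% stands for 36 of the 41 introns. For the hexamers they were 51.2% and 55.0%, a smaller gap. A T at the sixth base was present in 61.2% of the poorly spliced introns and 69.7% of the others. With at least 100 reads it was present in 73.2% and 71.5%, where the order was the opposite.

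By hexamer, the highest shares of poorly spliced introns were 40% of the 10 that begin with GTAAAA, 27.3% of the 11 with GTATTT and 25% of the 16 with GTTCGT. Among the commonest, they were 13.4% of the 314 with GTATGT and 12.1% of the 439 with GTAAGT. The lowest, 9.09%, was that of the 11 with GTATAT, so the order is uneven among rare hexamers. The branch point letters CTAAC were found in the last 40 bases of 37.9% of the poorly spliced introns and 49.5% of the others. The word CTAAC or its variants, which are CTGAC as well as CTAAT and the variant CTGAT, searched on the transcript strand only, were found in 72.2% of the poorly spliced introns and 78.2% of the others. With at least 100 reads these figures were 36.6% and 52.5% for CTAAC and 68.3% and 80.4% for any of the 4 words. A word missing from this window says only that these letters are not in it.

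**Figure D5:**
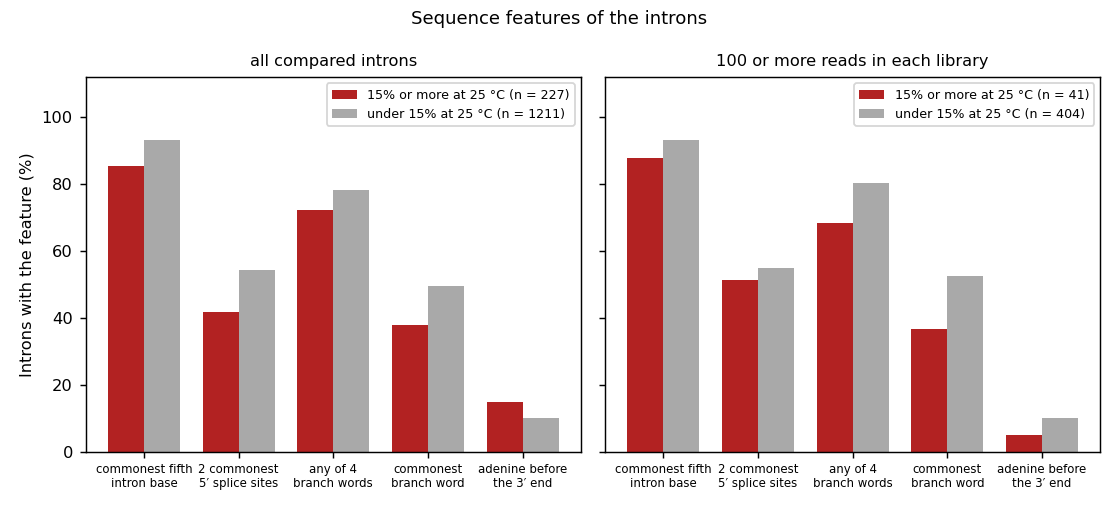
Share of introns, in percent, that carry each of 5 sequence features, for introns at 15% or more unspliced at 25 °C (red) and under 15% (grey), over all 227 and 1211 compared introns (left) and over the 41 and 404 with at least 100 reads in each library (right). The red bars are lower for the commonest bases at the 5' splice site and for the branch words in both panels, and the bars for an adenine before the 3' end change order between the panels.

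The median length was 58 nt for the poorly spliced introns and 61 nt for the others. With at least 100 reads in each library, 24.4% of the poorly spliced introns and 14.6% of the others were 45 nt or shorter, and 1 of 41 (2.44%) and 48 of 404 (11.9%) were 200 nt or longer. Over all compared introns these shares were 21.6% and 18.6% for 45 nt or shorter, and 10.6% and 9.41% for 200 nt or longer. Of the 20 bases before the last 3 intron bases a median of 40% were uridine in both groups, with lower quartiles of 30% for the poorly spliced introns and 35% for the others. The median GC content was 30.2% for the poorly spliced introns and 28.9% for the others. An adenine before the final AG was found in 34 of the 227 poorly spliced introns and in 123 of the 1211 others, and in 4.88% and 10.1% of those with at least 100 reads, where the order was the opposite. On the plus strand, where the order along the transcript is known, the first intron of a gene with several made up 27.7% of the 130 poorly spliced introns and 34.4% of the 793 others, and the last intron 40% and 34.7%.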

How the data were processed

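Spliced and unspliced reads per intron were available for 2 libraries, assigned to 34 °C and 25 °C from their titles. The deposited tables hold whole read counts per intron without scaling, per the file headers. A ratio column, spliced over unspliced with each 0 set to 1, was deposited by the authors, and all 10748 ratios matched recomputation within a relative tolerance of 1e-06. They were not used further. A smaller table repeats the counts of 1340 introns. TopHat and SAMtools are named in the submitters' processing notes. Build, annotation, counting software, strand handling and what counts as unspliced are each not given in the sources used here. If reads anywhere in an intron were counted, long introns would gather more.

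Of 5374 introns, 2866 had under 20 reads in at least 1 library and were not used. Reads were compared by Fisher's exact test in scipy 1.17.1 with Benjamini-Hochberg adjustment, called at 0.05. Shares have exact Clopper-Pearson and differences Newcombe 95% intervals (statsmodels 0.14.6). The tests were tested on simulated data with independent reads, which hold no PCR copies and no variation between cultures. Symbols and positions came from the RefSeq annotation of ASM294v3, which may differ from the authors'. Of 2548 gene identifiers 2541 had an entry, and 2415 of the measured introns were placed by number in genes whose intron count equals that of the annotation. Numbers were read from the left of the chromosome, since in minus-strand genes the share at 34 °C and the 5' splice site score had a within-gene rank correlation of -0.24 that way and 0.037 from the right (967 introns).

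The introns, the lists and the naming rule were chosen with earlier results of these data known. Introns were named from those with at least 100 reads in each library by share at 25 °C, by change and by closeness to 15%, from the deepest, from genes with several, from the widest neighbouring differences and from the lists. 1 intron that this rule names, just under 15%, is not reported here. No list was tested. Alternatives were other read minimums and limits, introns free of overlapping exons, a chi-square test and all pairs of introns.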

Additional observations from a re-analysis of the deposited data

How the results depend on the processing

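The number of poorly spliced introns, the number of them higher at 34 °C, their median share at 34 °C and the number of neighbouring pairs with the poorly spliced intron higher were recomputed under each alternative, and the counts moved with the number of introns admitted. With a minimum of 10 reads there were 639 poorly spliced introns. With a minimum of 50 reads there were 160, of which 139 were higher (all introns 87.7%), with 48 pairs. A limit of 10% gave 726 introns, 608 of them higher (all introns 82.6% at any limit), and a median of 64.3%. A limit of 20% gave 254 introns, 195 of them higher, and a median of 78.3%. With the lower interval limit at 15% or more there were 161 introns, 119 higher (73.9%, all introns 82.6%), a median of 83.1% and 65 pairs. Introns free of overlapping exons numbered 140, with 114 higher (all introns 84.6%) and 28 pairs, and all pairs of introns of a gene gave 229. A minimum of 100 reads, chosen after seeing the data, left 59 introns, 58 higher (all introns 91.7%), with a median of 80.1% and 19 pairs. The counts move by construction with the introns admitted, and the cause of the moved medians was not tested. Leaving out wtf genes, or entries never spliced, and the chi-square test kept each value run within 1.5 times. In 0 of these alternatives was a poorly spliced intron called lower, and the calls of the 59 introns with at least 100 reads stayed on the same side in all 374 recomputations. Apart from the chi-square test, these recomputations leave the counts and the Fisher p of an intron unchanged and alter only the adjustment. Their agreement was therefore largely fixed in advance. No paired analysis was possible because each temperature has 1 library. Depth limits the choice itself, since at 20 reads a share of 15% rests on 3 unspliced reads.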
